A study of Mus musculus with 15 samples.

Results

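Transcripts of the heat shock chaperones and of their transcription factor were followed in mouse whole blood. The set comprised the 10 genes Hsf1, Hspa1a, Hspa1b, Hspa8, Hsp90aa1, Hsp90ab1, Hsph1, Dnajb1, Hspd1 and Hspe1. They were taken by their symbols from a table of 55536 genes and not by their values, though earlier results of these data were known. All 10 genes were in the table, and 8 of them passed the filter on low counts, which left 13364 genes in all. The 8 exposed animals were male C57Bl/6 mice aged 10 months whose mothers drank water containing tributyltin (TBT), an organotin known as a ligand of the RXR and PPAR gamma receptors. The mothers took in 0.5 mg per kg daily from water at 3.07 µM, until weaning. The 7 vehicle animals were of the same strain, sex and age, and the sources used here do not say what the vehicle contained. Each library held total RNA of whole blood from 1 animal, and vehicle 3 is labelled as having a liver tumor.

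Heat shock proteins are chaperones, proteins that keep other proteins folded or help them to refold. In unstressed cells HSF1 is held inactive by chaperones. On heat or other protein damage it forms trimers, binds heat shock elements in promoters and raises transcription of its target genes. Some chaperones, such as HSC70 (Hspa8) and HSP90 beta (Hsp90ab1), are made in most cells at all times, while the inducible HSP70 genes Hspa1a and Hspa1b are the classical readout of an active response. HSP110 (Hsph1) and HSP40 (Dnajb1) serve as partners of HSP70, and HSP60 (Hspd1) with its lid HSP10 (Hspe1) forms the folding chamber of mitochondria.

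In total RNA of blood, most reads come from erythroid cells, nucleated blood cells and platelets together, so fewer cells of a type and less RNA per cell cannot be told apart here. The libraries held 6.03 M to 11.99 M gene counts, of which haemoglobin genes took 28.7% to 50.8%. Levels are given as counts per M counts (CPM) after TMM scaling, which multiplies each library total by a factor, unless stated otherwise. This factor was lowest in TBT 2 (0.404) and TBT 8 (0.528), where the erythroid marker sum was the highest of the TBT animals, and results of members that these libraries move are given with and without them. Of the erythroid list 9 of 10 genes were in the table, and their sum in CPM of all counts was 307087, 361927 and 544858 (lowest, median and highest) in TBT and 315989, 396968 and 470534 in vehicle, with none at 0 in all libraries. The labelled tissue matched its markers, since all 10 genes each of the platelet, neutrophil, monocyte, B cell, T cell and NK cell lists were read. Their sums in TBT and vehicle ran from 2475 to 7378 CPM and 3326 to 6733 CPM for platelets, 194.0 to 1113 CPM and 436 to 1179 CPM for neutrophils, and 733 to 2172 CPM and 901 to 2408 CPM for monocytes. They ran from 469 to 4639 CPM and 1690.4 to 3070.5 CPM for B cells, 70.9 to 491 CPM and 133 to 411 CPM for T cells, and 29.0 to 170.4 CPM and 42.7 to 127 CPM for NK cells. Transcripts of 10 hepatocyte genes summed to 4.39 to 664 CPM in TBT and 5.83 to 734 CPM in vehicle.

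The members' genes differ in the heat shock elements of their promoters, and the windows that carry them are shown because HSF1 acts through such elements. A heat shock element is a run of alternating GAA and TTC units spaced by 2 bases. The windows hold 250 bases before and 50 bases after each start in RefSeq on GRCm38.p6, and 6 of the 10 members had an entry, with 9 entries in all. Hspa8, Hsp90aa1, Hsp90ab1 and Hsf1 had none. Capitals mark matches to GAA, TTC and GAA with NN between each (3 units, on either strand), or to GAANNTTC or TTCNNGAA (2 units, each its own reverse complement), and a 3-unit match contains 2-unit matches. All sequences run 5′ to 3′ on the gene's strand.
Hspe1, chr1:55087898-55088197, plus strand: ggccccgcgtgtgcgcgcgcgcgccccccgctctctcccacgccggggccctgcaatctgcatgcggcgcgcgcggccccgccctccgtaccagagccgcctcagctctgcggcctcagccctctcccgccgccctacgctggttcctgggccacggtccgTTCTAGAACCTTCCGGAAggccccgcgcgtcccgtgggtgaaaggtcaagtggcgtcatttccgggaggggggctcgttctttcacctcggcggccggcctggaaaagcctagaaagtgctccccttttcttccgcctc
Hsph1, chr5:149636287-149636586, minus strand: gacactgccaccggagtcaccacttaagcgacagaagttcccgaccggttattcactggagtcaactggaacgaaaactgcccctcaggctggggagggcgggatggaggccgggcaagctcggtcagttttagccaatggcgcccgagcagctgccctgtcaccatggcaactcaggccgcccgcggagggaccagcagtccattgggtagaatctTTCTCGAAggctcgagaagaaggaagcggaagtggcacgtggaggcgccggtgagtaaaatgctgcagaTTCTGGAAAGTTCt
Hspa1a, chr17:34972107-34972406, minus strand: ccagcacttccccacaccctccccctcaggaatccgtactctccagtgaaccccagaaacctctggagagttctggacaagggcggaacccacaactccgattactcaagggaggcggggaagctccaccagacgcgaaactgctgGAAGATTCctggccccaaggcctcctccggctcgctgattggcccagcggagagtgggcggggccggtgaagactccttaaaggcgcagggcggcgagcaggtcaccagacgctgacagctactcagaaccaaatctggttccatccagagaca
Hspa1b, chr17:34959189-34959488, minus strand: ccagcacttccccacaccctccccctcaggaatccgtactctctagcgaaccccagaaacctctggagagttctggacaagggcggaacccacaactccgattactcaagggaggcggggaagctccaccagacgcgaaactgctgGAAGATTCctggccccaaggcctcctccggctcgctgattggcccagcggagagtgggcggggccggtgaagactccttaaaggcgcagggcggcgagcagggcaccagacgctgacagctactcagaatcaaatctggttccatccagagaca

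Hspd1 and Hspe1 lie head to head on chromosome 1 and share the block printed for Hspe1. It spans bases 162 to 179 of that window and is made of 2 overlapping 3-unit matches. The window of Hspd1 at chr1:55087883-55088182 on the minus strand holds the same block at bases 107 to 124, and the other Hspd1 window, at chr1:55088194-55088493, holds none. Hsph1 has a 3-unit match at bases 287 to 299, after the start, and a separate 2-unit match at bases 218 to 225. Its other RefSeq window, chr5:149636266-149636565, holds the same matches. Hspa1a and Hspa1b each have the 2-unit match GAAGATTC at bases 147 to 154 and a CCAAT box, read as ATTGG, at bases 184 to 188. No heat shock element match was found in either window of Dnajb1, which says only that these letters are not in those windows. Of 32841 promoters of the same length, 0.603% held a 3-unit match and 15.1% held either 2-unit match, GAANNTTC in 7.86% and TTCNNGAA in 8.52%. A CCAAT box on either strand was in 37.4% of them, and among the other members Dnajb1 had it at bases 100 to 104 and 262 to 266 of its window at chr8:83607925-83608224, Hsph1 at bases 135 to 139 and 204 to 208, and Hspd1 at bases 252 to 256 of its window that holds no heat shock element match. The letters TATAAA, searched on the gene's strand and found in 8.32% of all promoters, were in none of the members' windows. A match is a description of the letters and not a measured binding site.

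The promoters of Hspa1a and Hspa1b are nearly the same sequence. They differ at 4 of 300 positions and are 98.7% identical. With the Hspa1a base first, positions counted from 1 at the 5′ end and the Hspa1b base last, the differences are C44T, T47C, T249G and C276T. None of them falls in the match or in the CCAAT box. The transcripts are similarly close: 58.8% of all 50-base windows of Hspa1a (GRCm38, chr17:34969190-34972156, minus strand, 1 exon) occur in Hspa1b (chr17:34956436-34959238, minus strand, 1 exon). In the other direction 62.3% of the windows of Hspa1b occur in Hspa1a. A read inside these windows cannot be assigned to either gene, so both values are uncertain and their sum is given too. How reads that match both genes were counted is not stated in the sources used here. If such reads were left out, the sum is too low as well.

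In resting adult blood, the chaperones that cells make at all times were abundant and the inducible HSP70 genes gave few reads. Levels between genes were compared per kilobase of GENCODE M21 exon length. Hsp90ab1, which encodes the constitutive cytosolic HSP90, was the most abundant member at 95.3 ± 38.0 CPM per kb in TBT and 72.0 ± 10.3 CPM per kb in vehicle (SD, n = 8 and 7). Per kb it stood above Hspa8 in 15 of 15 libraries and above 98.2% of all tested genes. This order depends on the exon lengths used, 2999 bases for Hsp90ab1 and 4301 bases for Hspa8. Before division by length, Hsp90ab1 had more reads than Hspa8 in 6 of 8 TBT and 4 of 7 vehicle libraries. Hspa8, the constitutive HSP70 that also strips clathrin from vesicles, followed with 45.8 ± 8.11 CPM per kb in TBT and 46.4 ± 6.47 in vehicle, above 97.0% of tested genes. Hsp90aa1, the inducible HSP90 alpha, reached 19.98 ± 4.96 CPM per kb in TBT and 17.9 ± 1.69 in vehicle, above 92.8% of tested genes. The ranges of these 3 genes in CPM per kb did not overlap over the 15 libraries.

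The mitochondrial pair, the HSP70 partners and Hsf1 formed a lower tier, at 6.46 to 2.35 CPM per kb in TBT and 6.64 to 2.28 in vehicle. Hspd1 averaged 6.46 ± 0.885 CPM per kb in TBT and 6.64 ± 1.08 in vehicle, and lay above Hspe1 in 14 of 15 libraries, with overlapping ranges. Hspe1 averaged 4.52 ± 1.21 CPM per kb in TBT and 4.43 ± 1.08 in vehicle, and lay above Dnajb1 in 14 of 15 libraries. Dnajb1, the J-domain protein that delivers clients to HSP70, averaged 3.19 ± 0.468 CPM per kb in TBT and 2.81 ± 0.729 in vehicle. Hsf1 averaged 2.35 ± 0.324 CPM per kb in TBT and 2.58 ± 0.341 in vehicle. Hsph1, the exchange factor that resets HSP70 and is itself related to it, averaged 2.56 ± 0.788 CPM per kb in TBT and 2.28 ± 0.433 in vehicle. Dnajb1 stood above Hsf1 in 11 of 15 libraries and Hsf1 above Hsph1 in 11 of 15, with overlapping ranges, so the order of these 3 is not set beyond the spread. Hsf1 and Hsph1 stood near the middle of the tested genes, above 52.7% and 52.4% of them.

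Below a wide gap came Hspa1b, at 0.161 ± 0.0958 CPM per kb in TBT and 0.121 ± 0.103 in vehicle, and Hspa1a, at 0.0730 ± 0.0639 in TBT and 0.0398 ± 0.0416 in vehicle.

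**Figure D1:**
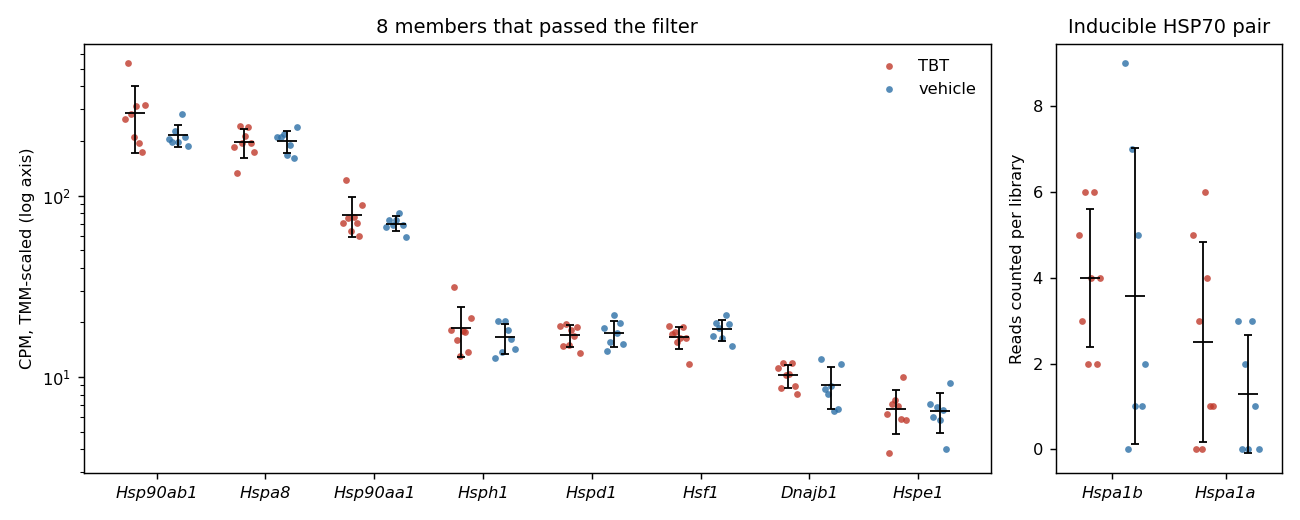
Level of each member by group, TBT left of vehicle: on the left CPM after TMM scaling on a log axis for the 8 genes that passed the filter, on the right reads counted per library for Hspa1b and Hspa1a. Points are libraries (8 TBT, 7 vehicle), and bars are the mean ± SD. In all 8 genes the groups overlap, TBT 2 is the top point of Hsp90ab1 at 535 CPM, and no library exceeds 9 reads for either inducible HSP70 gene.

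The inducible HSP70 genes gave single-digit read counts in every library. Hspa1a had 0 to 6 reads per library in TBT, 20 in all, against 0 to 3 in vehicle, 9 in all. It was at 0 in 2 TBT and 3 vehicle libraries. Hspa1b had 2 to 6 reads in TBT, 32 in all, against 0 to 9 in vehicle, 25 in all, with 1 vehicle library at 0. The groups overlapped for both genes, and the highest Hspa1b count lay in vehicle 1. A count of 0 allows up to 3 reads, which is 0.190 to 0.876 CPM depending on the library, and covers counting error only. Neither gene passed the filter, nor did their sum. Fitted without the filter by edgeR's quasi-likelihood test with Benjamini-Hochberg adjustment, the log2 fold change of TBT over vehicle was 0.78 for Hspa1a (adjusted p = 0.722), 0.21 for Hspa1b (adjusted p = 0.945) and 0.41 for the sum (adjusted p = 0.787). At this depth a difference between the groups was not detectable for either gene.

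Set against Hspa8 within each library, which removes the scaling, the 2 inducible genes together remained a small fraction of the constitutive one. The log2 ratio of reads (0.5 added to each) was -10.19, -8.05 and -7.04 (lowest, median and highest) in TBT and -11.82, -8.87 and -7.49 in vehicle. The means, -8.31 ± 1.12 in TBT and -9.08 ± 1.44 in vehicle (SD, n = 8 and 7), correspond to 0.00315 and 0.00185 inducible reads per Hspa8 read. The difference of 0.76 was within the spread between animals (two-sided exact permutation test over 6435 splits, p = 0.275, adjusted over 3 ratios 0.413), with 6 of 8 TBT libraries above the vehicle median. It was 0.31 without vehicle 2, which had 0 reads of both genes and whose value is therefore set by the number added. It was 0.43 without TBT 2, TBT 8 and vehicle 6, and 0.20 with 5 added in place of 0.5.

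No member was called as changed in blood of the TBT animals. Of the 8 genes that passed the filter, 5 were higher and 3 lower in TBT, and none was called at an adjusted p of 0.05 by edgeR's quasi-likelihood test, where 0.00% of all 13364 tested genes were called. None had an unadjusted p under 0.05 either, against 6.33% of all tested genes (4.57% higher and 1.76% lower in TBT). DESeq2 called 13 of 20191 genes (0.0644%) and limma-voom with sample quality weights 19 (0.142%), none of them a member. The group ranges overlapped in 8 of 8 members, and they did not overlap in 0.112% of all tested genes. The median log2 fold change was 0.10 over the 8 members and 0.05 over all tested genes, 7934 of which were higher and 5430 lower. With library totals alone, a setting chosen after the data had been seen, all 8 members had log2 fold changes above 0, as did 10128 of all tested genes against 3236 below, around a median over all genes of 0.14. In 7 of 8 members the 95% interval lay within a 1.5-fold change in either direction, Hsp90ab1 being the exception.

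**Figure D2:**
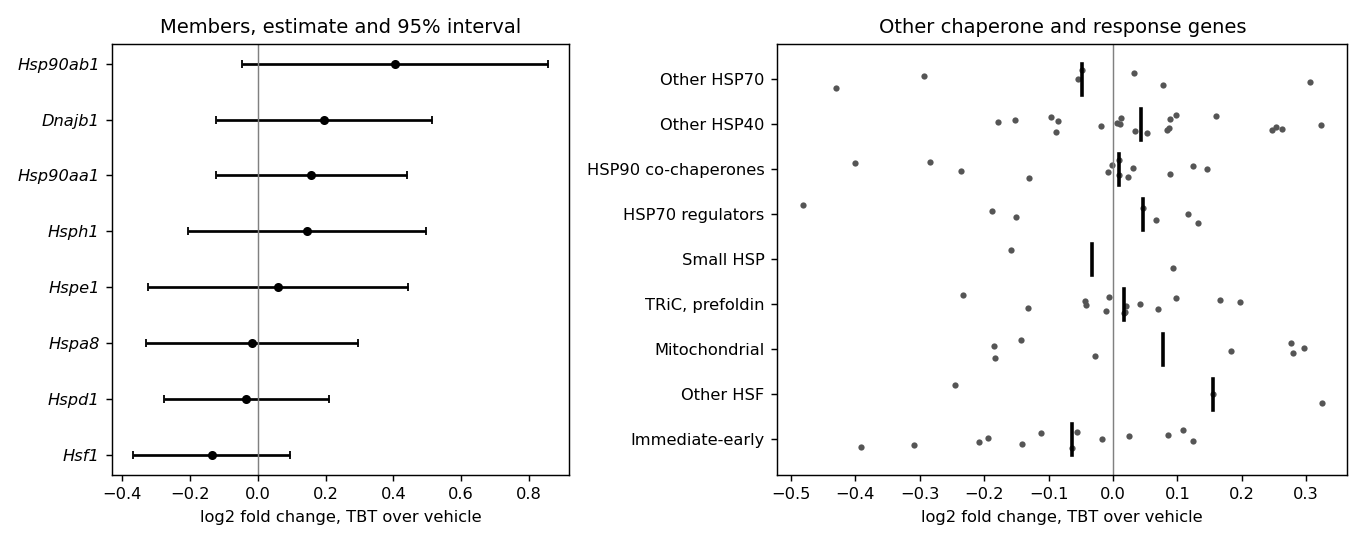
Log2 fold change of TBT over vehicle from edgeR. Left, the 8 members with their 95% intervals, all of which include 0 and of which Hsp90ab1 (0.40) is the widest and the farthest from 0; right, each tested gene of the other chaperone lists and of the immediate-early list as a point, with a bar at the median of its list.

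Hsp90ab1 (GRCm38, chr17:45567775-45573271, minus strand, 9 exon blocks) had the largest difference of the members. It stood at 174, 274 and 535 CPM (lowest, median and highest) in TBT and at 189, 206 and 280 CPM in vehicle, with means of 286 ± 114 and 216 ± 30.9 CPM. The top of the TBT group was TBT 2, followed by TBT 8 at 315 CPM, while TBT 7 was the lowest of all 15 libraries. 6 of 8 TBT libraries lay above the vehicle median. The log2 fold change was 0.40 (SE 0.215, 95% interval -0.05 to 0.86), a fold of 1.32, with an adjusted p of 0.827 in edgeR. Leaving out TBT 2 gave 0.20, and 0.14 remained without TBT 2, TBT 8 and vehicle 6.

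The place of TBT 2 in this gene depended on the scaling. In CPM of all counts, with no scaling factor, Hsp90ab1 stood at 166, 273 and 400.3 CPM in TBT and 155, 203 and 309 CPM in vehicle. TBT 2 then held 216 CPM, rank 10 of 15, and TBT 5 was the highest. The log2 fold change was 0.34 with library totals alone. A ratio of 2 genes within a library is free of any scaling. TBT 2 had 3.99 Hsp90ab1 reads per Hspa8 read and TBT 8 had 1.81, while the other 6 TBT libraries had 0.817 to 1.47 and the 7 vehicle libraries 0.794 to 1.47. This ratio was not among the 3 tested ratios and is described without a test. Hspa8 stood at 54.0 and 91.6 CPM of all counts in TBT 2 and TBT 8, against 119 to 297 CPM in vehicle. Hsp90ab1 stood at 216 and 166 CPM of all counts there, inside the vehicle range. In these 2 libraries Hsp90ab1 was thus high relative to Hspa8 on any scale, while Hspa8 was low in CPM of all counts. Their erythroid sums were 544858 and 480840 CPM of all counts, the highest of all 15. Markers of white blood cells were low in them: the T cell sums were 79.4 and 70.9 CPM in TBT 2 and TBT 8, against 133 to 491 CPM in the other 13 libraries. The B cell sums were 469 and 759 CPM, against 1669 to 4639 CPM elsewhere, and the neutrophil sums 257 and 194.0 CPM, against 436 to 1179 CPM. The NK cell sums were 29.0 and 41.1 CPM, against 42.7 to 170.4 CPM, while the monocyte sum was the lowest in TBT 2 (733 CPM) and inside the range of the others in TBT 8 (1270.1 CPM). The part of blood composition in the ratio was not tested.

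Hsp90aa1 (chr12:110690605-110702728, minus strand), which shares its function with Hsp90ab1 but is regulated more strongly by heat in many cells, was highest in the same animals. It stood at 59.8, 73.3 and 122 CPM in TBT and 59.0, 69.0 and 80.5 CPM in vehicle. TBT 2 and TBT 8 were again the 2 highest libraries, and the rest of the TBT group lay inside the vehicle range. The log2 fold change was 0.16 (SE 0.134, 95% interval -0.12 to 0.44, adjusted p = 0.930 in edgeR), 0.03 when TBT 2 was left out and -0.02 without TBT 2, TBT 8 and vehicle 6.

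The balance between both cytosolic HSP90 genes leaned further to Hsp90ab1 in TBT, within the spread. The log2 ratio of Hsp90aa1 to Hsp90ab1 reads was -2.13, -1.86 and -1.46 in TBT and -1.80, -1.61 and -1.43 in vehicle, and was below 0 in all 15 libraries. The means were -1.81 ± 0.232 and -1.61 ± 0.140, or 0.285 and 0.327 Hsp90aa1 reads per Hsp90ab1 read. Only 2 of 8 TBT libraries lay above the vehicle median. The difference of -0.20 did not pass the two-sided exact permutation test (p = 0.0735, adjusted over 3 ratios 0.221), and it was -0.14 without TBT 2, TBT 8 and vehicle 6.

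**Figure D3:**
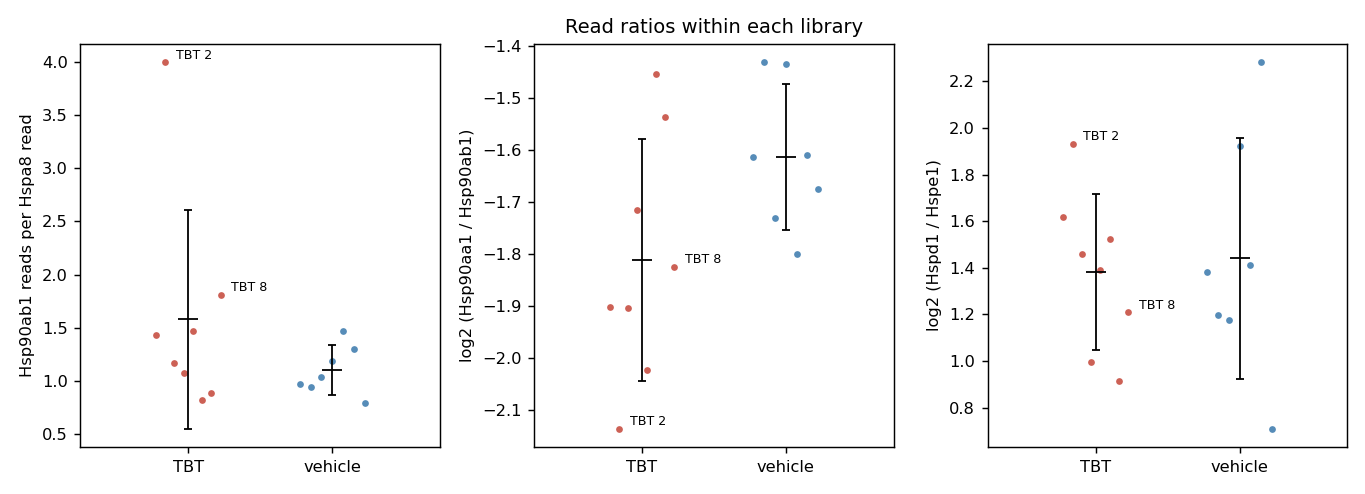
Ratios of reads within each library, free of library scaling, TBT left of vehicle with mean ± SD bars: Hsp90ab1 reads per Hspa8 read (left), log2 of Hsp90aa1 over Hsp90ab1 (middle) and log2 of Hspd1 over Hspe1 (right). TBT 2 stands at 3.99 Hsp90ab1 reads per Hspa8 read, while the other 14 libraries reach at most 1.81.

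Hsph1 (chr5:149614287-149636376, minus strand, 19 exon blocks) followed the HSP90 genes across libraries. It stood at 13.01, 17.8 and 31.2 CPM in TBT and 12.8, 16.2 and 20.4 CPM in vehicle. TBT 2 and TBT 8 were the 2 highest libraries, and 5 of 8 TBT libraries lay above the vehicle median. Its log2 fold change was 0.15 (SE 0.167, 95% interval -0.21 to 0.50, adjusted p = 0.964 in edgeR), 0.00 when TBT 2 was left out and -0.06 without TBT 2, TBT 8 and vehicle 6. In CPM of all counts TBT 2 held rank 13 of 15 for Hsph1 and 14 for Hsp90aa1, so the high place of TBT 2 was seen after scaling and not in CPM of all counts.

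Dnajb1 (chr8:83608193-83612653, plus strand) did not share this pattern. It stood at 8.10, 10.3 and 12.035 CPM in TBT and 6.48, 8.59 and 12.5 CPM in vehicle. TBT 8 was the lowest of the TBT group, the highest value was in vehicle 1, and 7 of 8 TBT libraries lay above the vehicle median. The log2 fold change was 0.20 (SE 0.152, 95% interval -0.12 to 0.51, adjusted p = 0.910 in edgeR) and 0.20 again without TBT 2, TBT 8 and vehicle 6. When single animals were left out it ran from 0.12 to 0.30.

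Hspa8 (chr9:40800984-40810087, plus strand) differed between the groups by less than the spread between animals. It stood at 134, 195 and 242 CPM in TBT and 162, 211 and 238 CPM in vehicle. TBT 2 was the lowest library, where Hsp90ab1 was the highest, and 3 of 8 TBT libraries lay above the vehicle median. The log2 fold change was -0.02 (95% interval -0.33 to 0.29, adjusted p = 0.997 in edgeR), and the 95% interval of the fold was 0.795 to 1.23.

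The mitochondrial chaperonin genes also differed by less than the spread between animals. Hspd1 (chr1:55077835-55088243, minus strand) stood at 13.5, 17.6 and 19.7 CPM in TBT and 13.9, 17.6 and 22.0 CPM in vehicle, a log2 fold change of -0.03 (95% interval -0.28 to 0.21, adjusted p = 0.991 in edgeR). Hspe1 (chr1:55088132-55091307, plus strand) stood at 3.796, 6.57 and 10.1 CPM in TBT and 4.02, 6.56 and 9.29 CPM in vehicle, a log2 fold change of 0.06 (95% interval -0.32 to 0.44, adjusted p = 0.990 in edgeR). The groups overlapped almost wholly, and for each gene 4 of 8 TBT libraries exceeded the vehicle median. Hspe1 had the wider spread between libraries, 2.65-fold from the lowest to the highest against 1.63-fold for Hspd1, on 13 to 159 reads per library.

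Both genes start in the shared region shown above, and their ratio varied between animals. The log2 ratio of Hspd1 to Hspe1 reads was 0.91, 1.43 and 1.93 in TBT and 0.71, 1.38 and 2.28 in vehicle, and was above 0 in 15 of 15 libraries. The extremes were both vehicle animals: vehicle 6 had 4.93 Hspd1 reads per Hspe1 read and vehicle 7 had 1.64. The group difference of -0.06 was within the spread (two-sided exact permutation p = 0.796, adjusted over 3 ratios 0.796). The genes overlap by 112 bases on opposite strands, and whether the counting used strand is not stated in the sources used here.

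Hsf1 (chr15:76477422-76501913, plus strand), the transcription factor itself, stood at 11.8, 16.8 and 19.1 CPM in TBT and 14.9, 18.6 and 21.9 CPM in vehicle. TBT 8 was the lowest of all 15 libraries and vehicle 5 the highest, and only 2 of 8 TBT libraries lay above the vehicle median. The log2 fold change was -0.14 (SE 0.110, 95% interval -0.37 to 0.09, adjusted p = 0.920 in edgeR), -0.10 without TBT 8, -0.07 without TBT 2, TBT 8 and vehicle 6, and 0.00 with library totals alone. HSF1 is controlled mainly after translation, so its transcript level is not a measure of its activity.

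Set side by side after TMM scaling, the members did not move as a block from animal to animal. TBT 2 held the highest value of Hsp90ab1, Hsp90aa1 and Hsph1, which lay 1.14, 0.73 and 0.85 above their means over the libraries on the log2 scale, and the lowest of Hspa8 and Hspe1, which lay at -0.55 and -0.73. TBT 8 held the second highest value of the same 3 genes and the lowest of Hspd1 and Hsf1. In vehicle 3, labelled with a tumor, no member was among the 2 highest or the 2 lowest libraries. TBT 1 and TBT 5 were the other libraries of which this was true. These places hold after TMM scaling and depended on it. In CPM of all counts TBT 2 ranked 10 of 15 libraries for Hsp90ab1, 13 for Hsph1 and 14 for Hsp90aa1 and Hsf1. It ranked 15 for Dnajb1, Hspa8, Hspd1 and Hspe1, so most members were low there together on that scale.

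**Figure D4:**
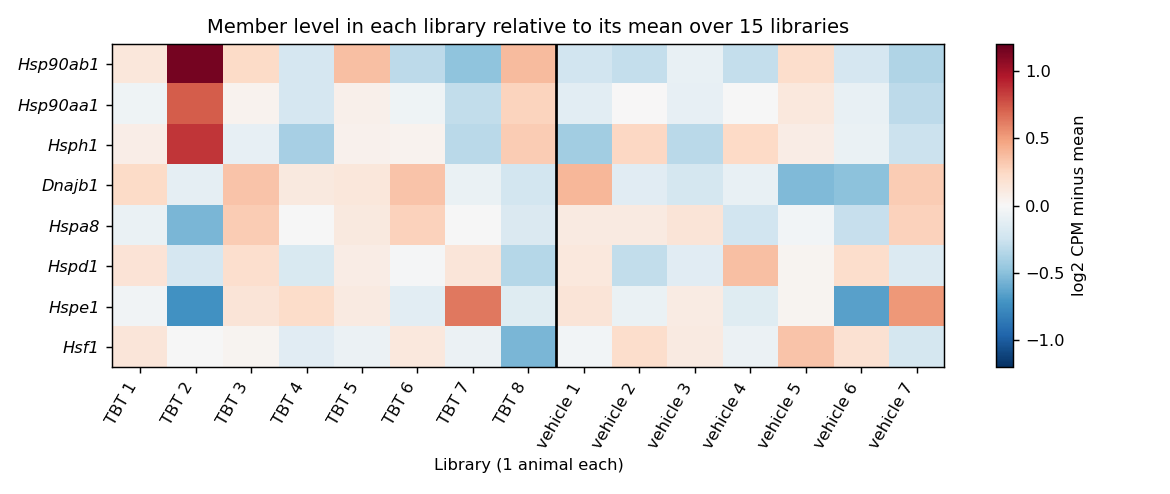
Log2 CPM (TMM-scaled) of each of the 8 tested members in each library, minus the gene's mean over the 15 libraries, with TBT libraries left of the black line. In TBT 2 Hsp90ab1 lies 1.14 above its mean and Hspe1 lies at -0.73, so on this scale members differ in sign within a library.

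Likeness between genes was measured as Pearson's r of log2 CPM over the 15 libraries, taking for each member the 3 tested genes with the highest r. These correlations describe libraries that share scaling and blood composition, and are given with no test. Hsph1 and Hsp90ab1 each had Hsp90aa1 as the most alike of all tested genes, with r of 0.889 and 0.915. Without TBT 2 and TBT 8 these values were 0.707 and 0.724 over 13 libraries. Hsph1 was next most like Asb3 (0.886) and Gm7854 (0.874), and Hsp90ab1 was next most like Zc3h15 (0.881) and Nsmaf (0.861), which were at 0.594 and 0.524 without those libraries. Hsp90aa1 itself was most like Zranb1 (0.936), Pafah1b1 (0.929) and Fbxo34 (0.920), which were at 0.746, 0.678 and 0.732 without the same libraries.

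The other members each had a different set of neighbours. Hspa8 was most like Nfil3 (0.910), A930007I19Rik (0.902) and Casp1 (0.886), and these values were 0.859, 0.806 and 0.871 without TBT 2 and TBT 8. Dnajb1 was most like Gm37033 (0.934), Gm38147 (0.900) and Raph1 (0.887), and its values were higher without these libraries (0.942, 0.903 and 0.896). Hsf1 was most like H2-K2 (0.942), Zfp830 (0.905) and Ndufaf8 (0.865). Hspe1 was most like Eif3l (0.896), Aaed1 (0.882) and Ankrd50 (0.880), and Hspd1 was most like Gm13091 (0.824), Fer1l5 (0.796) and E4f1 (0.786). Without TBT 2 and TBT 8 the values of these last 3 members ran from 0.690 to 0.892. Hspd1 and Hspe1 were thus not among each other's 3 nearest genes.

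Reads of several members could also belong to copies elsewhere in the genome, since chaperone genes have left many processed pseudogenes. The share of a member's 50-base windows that occur in the transcript of another gene was 66.3% for Hspa1a, 62.3% for Hspa1b, 47.5% for Hsp90aa1, 42.1% for Hspd1, 39.4% for Hspa8 and 22.8% for Hspe1. It was 3.44% for Hsp90ab1, 0.412% for Dnajb1 and 0 for Hsph1 and Hsf1. With 100-base windows the share was 38.0% for Hsp90aa1, 28.5% for Hspa8, 23.9% for Hspd1, 10.98% for Hspe1 and 0 for Hsp90ab1. Over all libraries the 4 other rows that share windows with Hsp90aa1 held 7.46% of the reads of the gene itself, and the 16 rows that share windows with Hspa8 held 1.28%. The 3 other rows that share windows with Hspa1a and Hspa1b held 53 reads, against 29 in Hspa1a and 57 in Hspa1b. For the mitochondrial pair, the 6 other rows that share windows with Hspe1 held 40.1% of the reads of Hspe1. These rows are pseudogenes and the protein-coding AC117239.2. The 9 other rows that share windows with Hspd1 held 99.3% of the reads of Hspd1. The single-exon row Hspa1a is also overlapped for 2225 of its 2967 bases by Gm20481 on the opposite strand, which had 0 reads in all libraries.

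The pseudogene row Hspd1-ps4 (GRCm38, chr4:106136111-106137778, minus strand, overlapping no other gene) held most reads of the rows that share windows with Hspd1, and about as many as its parent. It had 114 to 270 reads per library in TBT and 128 to 242 in vehicle, while Hspd1 had 51 to 300 in TBT and 87 to 224 in vehicle. Only 0.411% of the 50-base windows of Hspd1 occur in it, so few positions could give a read that matches both exactly. In CPM it stood at 8.85, 12.6 and 52.1 in TBT and 8.88, 21.5 and 30.1 in vehicle, with a log2 fold change of -0.10 (95% interval -0.97 to 0.76, adjusted p = 0.993 in edgeR). It was -0.34 without TBT 2, -0.48 without TBT 8, and -0.78 without TBT 2, TBT 8 and vehicle 6 (adjusted p = 0.0937), a setting applied to this row after its values were seen. The TBT libraries split: TBT 8 had 3.86 and TBT 2 had 2.92 pseudogene reads per Hspd1 read, while the other 6 had 0.449 to 0.790. The vehicle libraries ran from 0.571 to 1.66, and 5 of 7 were above 1. The 2 high libraries were those with the highest erythroid sums and the lowest T cell, B cell, neutrophil and NK cell sums, given above. The part of blood composition in this ratio was not tested.

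**Figure D5:**
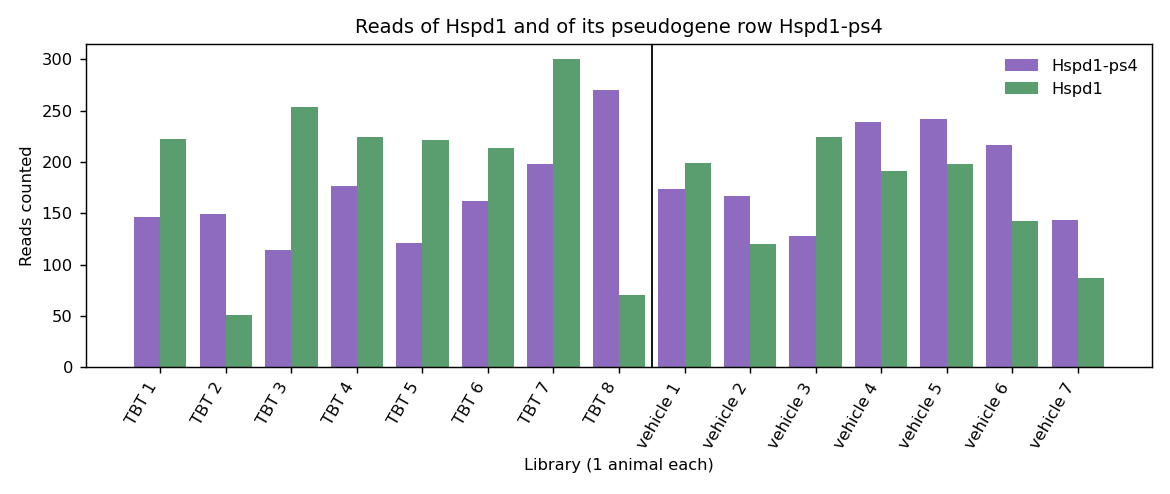
Reads counted for Hspd1-ps4 (purple) and Hspd1 (green) in each library, TBT left of the black line. In TBT 2 and TBT 8 the pseudogene row has 149 and 270 reads against 51 and 70 of Hspd1; in the other 6 TBT libraries Hspd1 has more.

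Of the remaining 10 rows named as copies of Hspd1 or Hspe1, Hspe1-ps5 alone passed the filter. It stood at 1.17, 1.92 and 2.87 CPM in TBT and 0.554, 1.24 and 2.98 CPM in vehicle, a log2 fold change of 0.55 (95% interval -0.08 to 1.18, adjusted p = 0.831 in edgeR). The row lies within Sp3 on the opposite strand. Hspe1-ps3 likewise overlaps Kmt2c, and Hspe1-ps2 overlaps Gm20498 and Cox16. Reads of these rows and of the overlapping genes could not be told apart without strand. Of the 50-base windows of Hspe1, only 0.561% occur in Hspe1-ps5, 1.12% in Hspe1-ps3 and 2.04% in Hspe1-ps2. With all rows named as copies added to their parents, the log2 fold change was -0.07 for Hspd1 and 0.22 for Hspe1, neither called.

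No gene of the wider chaperone network was called. Of 87 genes in 8 other lists of chaperones, co-chaperones and HSF or HSF-binding genes 74 were tested, of which 43 were higher and 31 lower in TBT. Their median log2 fold change was 0.02, and 2.70% had an unadjusted p under 0.05. Of all 13364 tested genes 0.00% were called and 6.33% had an unadjusted p under 0.05, with 7934 higher and 5430 lower and a median of 0.05. The genes of the lists with an unadjusted p under 0.05 were Dnajb14, a J-domain protein of the endoplasmic reticulum membrane, and Ppp5c, a phosphatase that docks on HSP90. Dnajb14 stood at 22.2 ± 3.12 CPM in TBT and 17.8 ± 2.82 in vehicle (SD, n = 8 and 7), a log2 fold change of 0.32 with an adjusted p of 0.725 in edgeR. Ppp5c stood at 10.6 ± 3.39 CPM in TBT and 14.2 ± 2.91 in vehicle, a log2 fold change of -0.40 with an adjusted p of 0.784.

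By role, the HSP40 list had 14 of 20 tested genes higher (median 0.04), with Dnajc7 at -0.18 and Dnajb4 at 0.26, and the other HSP70 genes 3 of 7 (median -0.05), with the testis-enriched Hspa2 at -0.43, Hspa4 at 0.08 and Hspa4l at 0.31. The HSP90 co-chaperones had 7 of 13 higher (median 0.01), with the myosin chaperone Unc45a at -0.28 and the immunophilin Fkbp4 at -0.24. The HSP70 regulators had 4 of 7 higher (median 0.05), with the ubiquitin ligase Stub1 at -0.48, the exchange factor Hspbp1 at -0.19 and Bag4 at -0.15. TRiC, the cytosolic chaperonin, with prefoldin had 8 of 14 higher (median 0.02), with Cct5 at -0.13, Cct4 at 0.07 and Pfdn6 at -0.23.

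The mitochondrial list had 4 of 8 higher (median 0.08), with the unfoldase Clpx at 0.28, the disaggregase Clpb at 0.30 and the mitochondrial HSP90 Trap1 at -0.18. Of the genes listed by name under small heat shock proteins only 2 of 9 were tested, Hspb6 at 0.09 and Hspb11 at -0.16. Of the other HSF and HSF-binding genes 3 of 5 were tested, and 2 of these 3 were higher (median 0.16). Hsf2, a relative of Hsf1, was at 0.32 and the HSF1-binding Hsbp1 at 0.16. Ier5, which binds HSF1 and promotes its activity, was at -0.25. The smallest adjusted p of any of these lists was 0.725. Immediate-early genes, which respond within minutes to many stimuli, handling included, had 4 of 13 higher (median -0.06), with Jun at -0.31, Ier2 at -0.19 and Fosb at -0.39, none called.

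Genes with a wide spread in TBT again had their highest values in the same animals. Hspa4l, of the HSP110 family like Hsph1, stood at 184 CPM in TBT 2 and 136 in TBT 8, and at 32.6 to 71.8 CPM in the other 13 libraries. Dnajb4 stood at 70.4 and 66.2 CPM there, against 21.3 to 36.9 CPM elsewhere, and Hsbp1 at 79.4 and 77.3 CPM, against 25.3 to 41.3 CPM. These 3 genes were singled out after their values were seen. In CPM of all counts the differences were small: Hspa4l stood at 74.0 and 71.7 CPM, against 51.4 to 67.7 CPM, and Dnajb4 at 28.4 and 34.8 CPM, inside the range of 27.0 to 41.0 CPM of the others. Hsbp1 stood at 32.0 and 40.7 CPM, also inside the range of the others, 27.0 to 47.8 CPM.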

How the data were processed

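The submitters' processing notes name Trim Galore, HISAT2 and featureCounts as tools and mm10 as the build. The sources used here state no version, annotation release, read length or strand setting. Libraries were Illumina TruSeq Stranded Total RNA, per the labels' protocols. The authors deposited raw whole-number counts per gene, 1 column per animal, matched by sample description. All 55536 identifiers were found in GENCODE M21 (GRCm38).

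Genes were filtered with filterByExpr by group and compared with edgeR 4.0.16 in R 4.3.3 (TMM, robust quasi-likelihood test, no covariate, Benjamini-Hochberg adjustment over 13364 genes at 0.05). Biological variation between animals had a common coefficient of 0.290, and the median half-width of the 95% intervals 0.41 (log2). Correlations used log2 CPM with a prior count of 2. Alternatives were RLE, upper-quartile or no scaling factors, no filter, a replicate block, animals left out, haemoglobin genes left out, copies summed, DESeq2 1.42.0 and limma 3.58.1 (voom with quality weights). The fit was tested on simulated counts. No pair of libraries of the same group agreed within counting noise (lowest chi-square per gene 11.1), and pairs across the groups were not compared. That animals of a group came from separate litters is not stated, so p-values measure the spread between these animals.

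The members, lists, tests and alternatives were chosen with earlier results of these data known. Named genes were all members, the 2 or 3 members of each other list with the smallest p, the 3 genes most alike each member, and rows named as copies. Sequences are from RefSeq, GRCm38.p6.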

Additional observations from a re-analysis of the deposited data

Results flagged for a closer look

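In 5 of 26 sets of values by group a library stood far from the others of its group. Chance would give about 1 in 20 for independent sets. These sets share the same 15 libraries, so no excess over chance can be read from the count. TBT 2 was the high end for Hsp90ab1 (535 CPM), Hsp90aa1 (122 CPM) and Hsph1 (31.2 CPM), all after TMM scaling; in CPM of all counts it ranked 10, 14 and 13 of 15 libraries for these genes. TBT 8 was the low end for Hsf1 at 11.8 CPM, with TBT 4 next at 15.7 CPM. Among vehicle animals, vehicle 5 was the high end for Hsp90ab1 at 280 CPM, against at most 227 CPM in the other 6. No cause was tested for any of these values.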

How the results depend on the processing

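No member was called under any setting, and the lowest adjusted p of a member was 0.213 (Hsp90ab1, edgeR without the filter, unadjusted p = 0.00133). Hsp90ab1 and Dnajb1 were higher in TBT under every alternative run, single animals left out included. Over all genes, where edgeR called 0, 2 were called without the filter (2 also with Hspa1a and Hspa1b summed), 1 with a replicate block, 7 without TBT 2, TBT 8 and vehicle 6, 13 by DESeq2 and 19 by limma-voom; leaving out single animals gave 0 to 0. The sign turned without TBT 2, TBT 8 and vehicle 6 for Hsph1 (-0.058), Hsp90aa1 (-0.024), Hspa8 (0.031), Hspd1 (0.059) and the ratio of Hspd1 to Hspe1 (0.017). It turned in limma-voom for Hsph1 (-0.026) and Hspa8 (0.0645), with a replicate block for Hspd1 (0.0067), and with library totals alone for Hspa8 (0.14), Hspd1 (0.14) and Hsf1 (0.0035), where the median over all genes was 0.14. Replicate number 8 held TBT 8 alone, so with a replicate block TBT 8 did not inform the group difference. For Hspd1-ps4 the log2 fold change was -0.56 with a replicate block and -0.74 in limma-voom. The cause was not tested. Leaving out single animals gave -0.078 to 0.031 for Hspa8, -0.084 to 0.028 for Hspd1, -0.067 to 0.15 for Hspe1, -0.48 to 0.016 for Hspd1-ps4 and -0.18 to 0.080 for the ratio of Hspd1 to Hspe1. Over 7 pairs of animals with the same replicate number, the correlation of deviations ran from -0.235 to 0.506. Of these TBT animals 1 correlated best with the vehicle animal of its own number. Such correlations cannot show that the animals were unpaired, and pairing by litter or handling was not tested. Depth limits Hspa1a and Hspa1b, at most 9 reads per library.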
